A study of Mus musculus with 19 samples.

Results

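This account covers burn against sham in CD44high regulatory T cells (Tregs), the activated subset of the CD4+ cells that express the transcription factor FoxP3. Its members are the libraries that the labels place in the CD44high Sham group (4 libraries, numbered 2 to 5) and in the CD44high Burn group (4 libraries, numbered 2 to 5), which is 8 of the 19 bulk RNA-seq libraries of the series. The other 11 are CD44low Tregs, 5 from uninjured and 6 from injured mice, and they serve only as a second subset to set beside the first. All mice were of the Foxp3DTR strain, in which the Foxp3 gene also drives a fusion of green fluorescent protein with the diphtheria toxin receptor, so that CD4+FoxP3-GFP+ cells can be sorted by their fluorescence. Burn mice received a full-thickness scald of the back and sham mice were treated with water at room temperature, and the axillary, brachial and inguinal lymph nodes that drain the injury site were taken on day 7 after injury. Each library was made from 50000 sorted cells. The labels do not say whether a library holds cells of 1 mouse or of several, so the p-values measure the spread between these libraries.

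Tregs restrain other T cells through inhibitory receptors, suppressive mediators and competition for interleukin 2, and they need FoxP3 to keep this function. Resting Tregs recirculate through lymph nodes by means of CCR7, and they express transcription factors of naive T cells such as TCF1, SATB1 and KLF family members. On activation they raise CD44 and acquire chemokine receptors, integrins and mediators that take them into inflamed tissue and skin. A separate group of activated Tregs acquires CXCR5 and PD-1 and enters B cell follicles. The comparison asks which of these features the CD44high subset gains or loses after a burn.

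Library totals were 5678888 to 8319320 counts in sham and 7616633 to 9433610 counts in burn libraries. Levels are given as CPM, counts scaled to a common library total with TMM factors, in which 1 count was worth 0.178 CPM in the smallest and 0.106 CPM in the largest of the 8 totals. Levels of different genes are not compared, since CPM is not corrected for gene length. The sort markers fitted the labels. Foxp3 lay at 77.4 to 103 CPM in sham and 47.7 to 96.8 CPM in burn libraries, Cd4 at 741 to 863 and 777 to 931, and Cd44 at 541 to 626 and 369 to 497, against 102 to 156 CPM of Cd44 in the CD44low libraries. None of the 12 tested genes of the Treg identity list passed edgeR's test (median log2 fold change −0.03), with 5 at an unadjusted p under 0.05 and 1 called lower by DESeq2. Cd44 itself was close in edgeR's test, with a log2 fold change of −0.45 (adjusted p = 0.0546), and DESeq2 called it lower (adjusted p = 0.0197). Every CD44high burn library lay below every CD44high sham library for Cd44. The part of a lower Cd44 level in the other results was not tested. RNA of other cells was present at low levels. Of the 26 listed B cell markers 21 were matched, and the heavy and light chain genes of immunoglobulins were not analysed here. The 21 summed to 175 to 381 CPM in sham and 253 to 479 CPM in burn libraries, and 1 of the 19 that were tested rose (Cd22). The 24 listed macrophage and dendritic cell markers summed to 153 to 240.3 and 165 to 372 CPM, and none of the 20 tested passed (2 at an unadjusted p under 0.05, 0 by DESeq2). The 14 listed neutrophil markers summed to 55.5 to 113 CPM in sham and 64.8 to 107 CPM in burn libraries. Of the 4 tested, 1 passed (S100a9) and 2 had a higher mean in burn. Of the 9 tested CD8 T and NK cell markers 1 passed (Prf1, lower), and of the 5 stromal, endothelial and keratinocyte markers 1 (Pecam1, higher). None of the 11 red cell and platelet markers had enough counts to be tested, and their sum was at most 3.21 CPM. In bulk RNA, fewer cells of a type and less RNA per cell cannot be told apart.

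Of the 11464 genes tested, 273 changed at an adjusted p under 0.05 (two-sided quasi-likelihood test of edgeR, Benjamini-Hochberg adjustment), which is 2.38% of them. There were 121 genes higher in burn (1.06%) with a median fold of 1.67, and 152 lower (1.33%) with a median fold of 1.72. These shares over all genes tested stand beside the counts of calls in each gene list below. At least a 2-fold change was seen for 36 of the higher and 50 of the lower genes. The 4 burn libraries did not overlap the 4 sham libraries for 116 of the higher and 147 of the lower genes, while 13.3% of all genes tested showed no overlap. The median log2 fold change over all genes tested was −0.02. An unadjusted p under 0.05 was reached by 1736 genes (15.1%). All 273 called genes kept their direction when any 1 of the 8 libraries was left out, and 61 of the higher and 55 of the lower genes were also called in each of those 8 analyses. The counts themselves depended on single libraries. The number of higher genes fell to 80 without Sham 5, to 78 without Burn 2 and to 78 without Burn 5, and the number of lower genes to 81, 71 and 90 without Sham 2, Sham 3 and Sham 5 and to 75 and 74 without Burn 2 and Burn 5. The genes called higher had a median exon length of 2814.5 bases and those called lower 4399.5 bases, against 4433.5 bases over all genes tested. When each library's trend on transcript length was removed, an alternative chosen after seeing the data, 138 genes were higher and 192 lower, with 113 and 143 of the original calls among them.

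**Figure D1:**
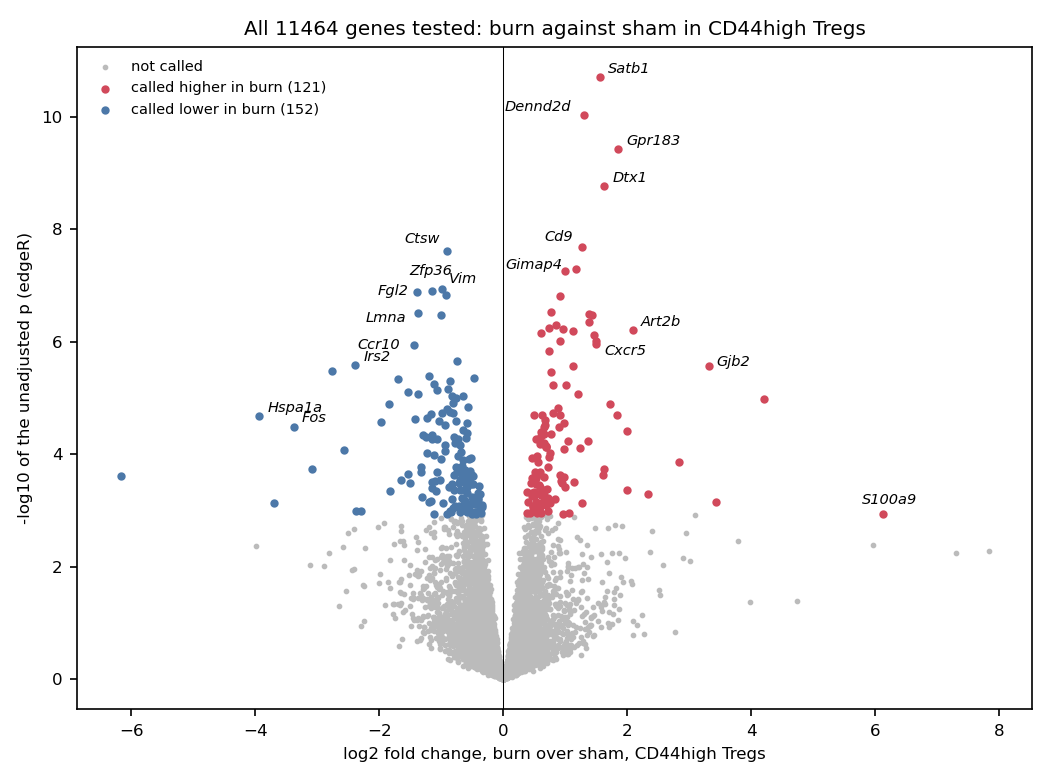
Change of every gene tested in CD44high Tregs. The x axis gives the log2 fold change of burn over sham and the y axis −log10 of the unadjusted p-value of edgeR's test, with 1 point per gene and the called genes in colour. Higher and lower calls (121 and 152) are spread over both sides, with Satb1, Dennd2d and Gpr183 at the top on the right.

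A stricter rule, an unadjusted p under 1e-06 with at least a 2-fold change, left 17 genes (0.148%), of which 14 were higher (0.122%) and 3 lower (0.0262%) in burn. The higher genes included Satb1, Dennd2d, Gpr183, Dtx1, Cd9, Gimap4, Gimap7, Prag1, AW011738, Art2b, Ddit4, Gm19585 and Cxcr5, and the lower genes were Zfp36, Fgl2 and Lmna. With 1 library left out this rule left 7 to 10 higher and 1 to 4 lower genes. At the border of the wider rule, S100a9 (adjusted p = 0.0496), Tmem176b (0.0497) and Exoc1 (0.0497) lay just inside, and Spcs1 (0.05), Gimap5 (0.0502) and Stra6 (0.0503) just outside.

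Satb1 encodes a chromatin organizer of thymocytes and naive T cells, and it had the smallest p-value of the comparison. It stood at 32.8, 55.4, 45.7 and 54.8 CPM in the sham libraries and at 141, 147, 119 and 151 CPM in the burn libraries. Every burn library was above every sham library by a wide margin. The fold change was 2.95 (log2 fold change 1.56 ± 0.130 SE, adjusted p = 2.26e-07). Dennd2d, which encodes a DENN domain protein that activates RAB GTPases, was measured at 22.6, 23.2, 28.2 and 21.5 CPM in sham and at 62.0, 60.4, 53.1 and 59.1 CPM in burn libraries. Within each group the libraries were close together, and the change was 2.46-fold (log2 fold change 1.3 ± 0.117, adjusted p = 5.29e-07). Of the 21 genes of the DENN and RAB list that were tested, Dennd2d was the only one called.

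Gpr183 encodes EBI2, an oxysterol receptor that places lymphocytes at the borders of follicles. It had 126, 118, 72.1 and 85.2 CPM in sham and 464, 309.5, 285 and 382 CPM in burn libraries, a 3.60-fold rise (log2 fold change 1.85 ± 0.179, adjusted p = 1.44e-06). The lowest burn library was far above the highest sham library. Cxcr5, the receptor for the follicular chemokine CXCL13, had 32.4, 37.0, 17.5 and 25.1 CPM in sham and 103, 66.1, 70.2 and 76.0 CPM in burn libraries. This was a 2.82-fold rise with no overlap (log2 fold change 1.5 ± 0.227, adjusted p = 4.02e-04).

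Fgl2 encodes a fibrinogen-like protein that Tregs secrete as a suppressive mediator. Its level was 505, 799, 810.5 and 683 CPM in sham and 211, 251, 346 and 256 CPM in burn libraries. All burn libraries were lower than all sham libraries, and the fall was 2.63-fold (log2 fold change −1.40 ± 0.188, adjusted p = 1.37e-04). Lmna, the gene of the nuclear lamins A and C, had 301, 387, 351 and 326 CPM in sham and 134, 125, 137 and 127 CPM in burn libraries. The burn libraries lay within a narrow band, and the fall was 2.61-fold (log2 fold change −1.38 ± 0.196, adjusted p = 2.17e-04). These 6 genes were called in each of the 8 analyses that left out 1 library.

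**Figure D2:**
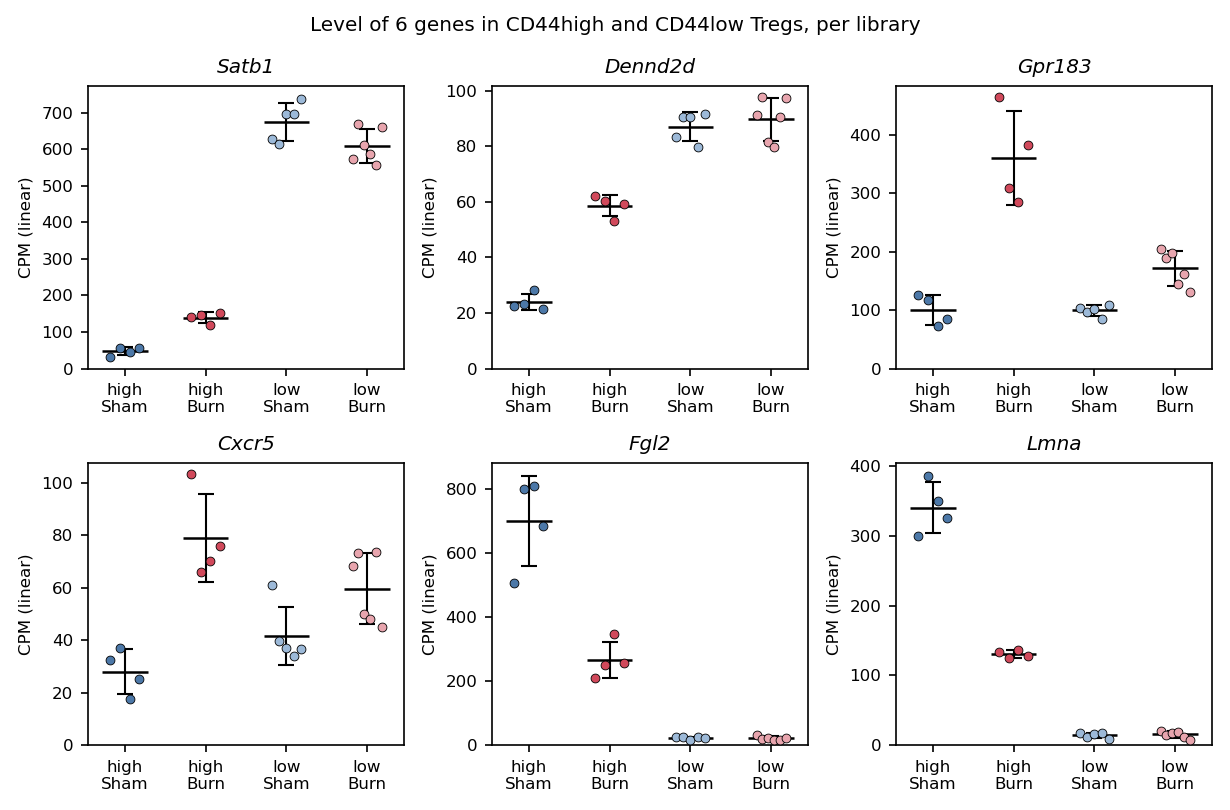
Levels of Satb1, Dennd2d, Gpr183, Cxcr5, Fgl2 and Lmna in CPM (y axis, from 0) in the CD44high and CD44low libraries of sham and burn mice, with a point per library and bars for the group mean and SD. In CD44high Tregs the first 4 genes are higher and the last 2 lower in every burn library than in every sham library.

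Among the 15 tested transcription factors of resting T cells, edgeR called 4 higher and none lower. The median log2 fold change of the list was −0.10, the opposite sign to its called members, and 6 of the 15 had a higher mean in burn. With no overlap between groups, 5 were higher and 3 lower (against 5.91% and 7.34% of all genes tested). DESeq2, and edgeR with RLE factors, each called 4 higher and 1 lower. The genes called higher were, besides Satb1, Tcf7, Klf3 and Id3. Tcf7 encodes TCF1, a factor of naive, memory and follicular T cells. It had 333, 289, 327 and 344 CPM in sham and 472, 516, 494 and 484 CPM in burn libraries, which was 1.52-fold higher (adjusted p = 3.28e-04). Klf3 was 1.49-fold higher (100.2 ± 14 against 149 ± 17.1 CPM, SD over 4 libraries, adjusted p = 0.0178) and Id3, an inhibitor of E proteins, 1.62-fold higher (103 ± 6.66 against 167 ± 41.3 CPM, adjusted p = 0.0386). The call of Klf3 was lost in 3 of the 8 analyses that left out a library, up to an adjusted p of 0.0750 without Sham 5, and that of Id3 in 6, up to 0.160 without Burn 2.

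Of the 11 tested genes of lymph node homing, retention and egress, 4 rose (Gpr183, Cxcr5 and Cd69 among them) and 1 fell (Itgb7), with a list median of 0.13. Cd69 holds T cells in lymph nodes by removing the egress receptor S1PR1 from the surface, and it rose 1.75-fold, from 143 ± 15.8 to 250.3 ± 27.0 CPM (adjusted p = 0.00157). Itgb7, the beta chain of gut and epithelial integrins, fell 1.26-fold (adjusted p = 0.0393), and that call was lost in 6 of the 8 analyses without 1 library, up to 0.187 without Sham 2.

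GIMAP genes encode GTPases that support the survival of resting lymphocytes. All 8 that were tested had a higher mean in burn, with a median log2 fold change of 0.50, and 4 of them passed the test. Gimap4 stood at 369.8, 334, 350.3 and 313 CPM in sham and at 1041, 608, 678 and 753 CPM in burn libraries, and Burn 2 was far above the others. It rose 2.25-fold (adjusted p = 7.96e-05). Gimap7 rose 2.60-fold, from 58.8 ± 7.84 to 153 ± 41.5 CPM (adjusted p = 2.17e-04), and Gimap3 rose 1.48-fold, from 552 ± 40.8 to 819 ± 95 CPM (adjusted p = 0.00631). For Gimap6 the rise was 1.51-fold (adjusted p = 0.0171), with the call lost in 3 of the 8 analyses, up to 0.0758 without Burn 2. Burn 2 was the highest burn library for each of these 4 genes. Among the 14 tested BCL2 family genes 2 rose, both copies of the survival gene A1. Bcl2a1b rose 1.57-fold (adjusted p = 0.0187, not called in 3 of the 8 analyses, up to 0.0689 without Burn 5). Bcl2a1d rose 1.96-fold (adjusted p = 0.0493, not called in any of the 8). The copies of this gene are near-identical, so reads may have been split between them and these values are uncertain.

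Other genes among the strongest rises belonged to different families. Dtx1, a target of Notch signalling, had 98.4, 84.8, 55.5 and 74.2 CPM in sham and 178, 299, 258 and 232 CPM in burn libraries, a 3.09-fold rise (adjusted p = 4.83e-06). The tetraspanin gene Cd9 rose 2.42-fold, from 25.6 ± 4.24 to 62.2 ± 12.3 CPM (adjusted p = 4.76e-05). Art2b, which encodes a surface ADP-ribosyltransferase of T cells, had 4.64, 13.1, 9.17 and 6.64 CPM in sham and 51.5, 27.2, 29.5 and 34.1 CPM in burn libraries. Its change was 4.25-fold (adjusted p = 3.07e-04), and the lowest burn library had more than the highest sham library. Prkcb, a protein kinase C gene, rose 1.88-fold (102 ± 12.9 to 193 ± 8.25 CPM, adjusted p = 1.37e-04), and Evl, which regulates actin filaments, rose 1.71-fold (73.5 ± 4.85 to 126 ± 21.4 CPM, adjusted p = 2.17e-04). Adk, which encodes adenosine kinase, was the only called gene of the 14 tested in the purinergic list and was 1.60-fold higher (adjusted p = 0.00448).

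Follicular T cell genes held more higher calls than any other list. Of 17 tested, edgeR called 8 higher and none lower, and the list median was 0.60. In burn 15 had a higher mean, 12 of them with no overlap between groups (against 5.91% of all genes tested). With no overlap 1 was lower (against 7.34%). DESeq2 called 10 higher and 1 lower, and edgeR called 6 higher without Burn 2 and 6 without Burn 3. In CD44low Tregs 7 of the 17 were called higher and none lower (against 4.24% and 3.36% of all genes tested). Sh2d1a encodes SAP, the adaptor that T cells need to help B cells. It had 74, 68.0, 79.1 and 79.2 CPM in sham and 203, 132, 155 and 164 CPM in burn libraries, a 2.2-fold rise (adjusted p = 9.01e-04). Pdcd1, the gene of the inhibitory receptor PD-1, had 137, 138, 140.1 and 163 CPM in sham and 279, 282, 233 and 293 CPM in burn libraries. The groups were well apart and the rise was 1.88-fold (adjusted p = 0.00458). Izumo1r, the gene of folate receptor 4, rose 1.70-fold, from 402 ± 19.6 to 684 ± 104 CPM (adjusted p = 0.00105). Cebpa was at a low level and rose 3.97-fold, from 1.86 ± 0.653 to 7.45 ± 2.17 CPM (adjusted p = 0.0264), with the call lost in 6 of the 8 analyses without 1 library, up to 0.0903 without Sham 2. Cxcr5, Tcf7, Id3 and Cd200 complete the 8. The B cell markers Cd79a and Ms4a1 did not pass the test (log2 fold changes 0.02 and 0.16), and their part in the follicular result was not tested.

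Among 15 tested inhibitory receptors 4 rose (against 1.06% of all genes tested), none fell and the median was 0.14. Cd160, which binds HVEM, had 6.06, 3.39, 6.17 and 5.28 CPM in sham and 18.6, 12.8, 14.3 and 13.5 CPM in burn libraries, a 2.82-fold rise (adjusted p = 4.29e-04). Cd22, better known as an inhibitory lectin of B cells, had 26.9, 23.9, 13 and 14.7 CPM in sham and 56.4, 64.8, 62.8 and 73.5 CPM in burn libraries. The rise was 3.29-fold (adjusted p = 0.00267), and no other gene of the B cell list was called. Cd200, the ligand of an inhibitory receptor of myeloid cells, rose 1.35-fold (85.2 ± 11.8 to 115 ± 13.6 CPM, adjusted p = 0.0483). That call was lost in 6 of the 8 analyses, up to 0.166 without Burn 5. Ctla4 did not pass the test (1051 ± 74.6 and 1298 ± 166 CPM, adjusted p = 0.255), nor did Il2ra, which encodes the high-affinity interleukin 2 receptor chain (543 ± 15 and 404 ± 117 CPM, adjusted p = 0.153). Leaving out 1 library moved the adjusted p of Il2ra from 0.0215 without Burn 3, the 1 analysis of the 8 that called it lower, to 0.457 without Burn 2. Of the 16 tested TNF receptor superfamily genes 1 was called higher, against 1.06% of all genes tested. It was Tnfrsf9 (1.52-fold, adjusted p = 0.00608).

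The list of S100, annexin, vimentin and lamin genes, which includes structural and membrane genes of activated cells, gave 5 lower and 1 higher gene (Cd9) of 28 tested, with a median of −0.25. Vim, the intermediate filament vimentin, had 1654, 2078, 1852 and 1898 CPM in sham and 901, 991, 930.5 and 970.2 CPM in burn libraries. The fall was 1.97-fold with no overlap (adjusted p = 1.37e-04). Anxa6, a calcium-dependent membrane-binding protein, fell 1.39-fold, from 1899 ± 20.7 to 1369 ± 57.1 CPM (adjusted p = 0.00132). Among 16 integrin genes, Itgae and Itgb7 fell and Itgb1 rose. Itgae encodes CD103, which holds T cells at epithelia. It had 1503, 1492, 1435 and 1599 CPM in sham and 637, 1027, 1076 and 884 CPM in burn libraries, with Burn 2 the lowest, and it fell 1.66-fold (adjusted p = 0.00707). Itgb1 rose 1.44-fold (1106 ± 96.2 to 1597 ± 113 CPM, adjusted p = 0.0364), but was called in none of the 8 analyses that left out a library, with an adjusted p of up to 0.123 without Sham 2.

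**Figure D3:**
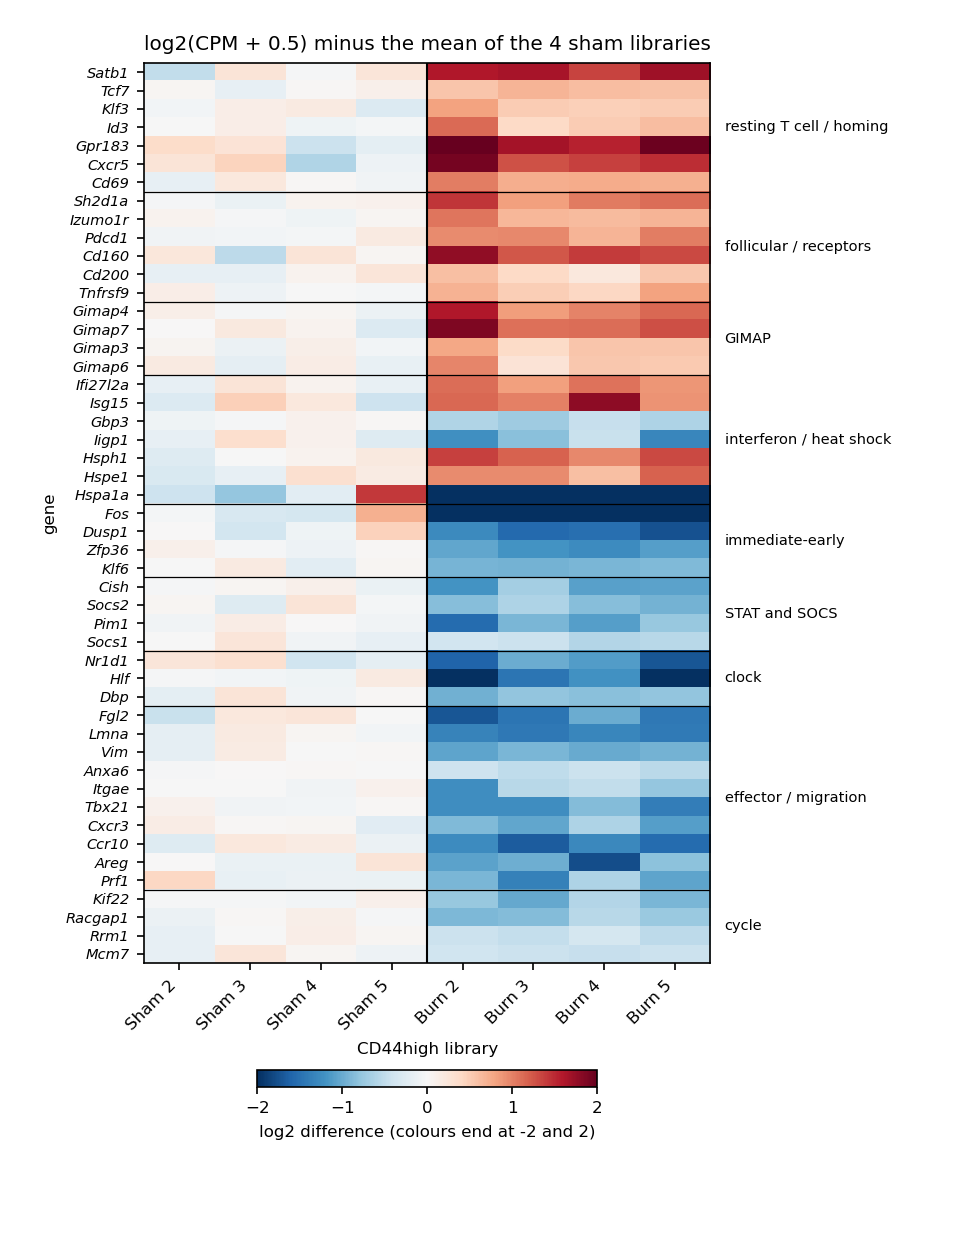
A selection of called genes named in the text (rows, by group) in each of the 8 libraries (columns), in colour as log2(CPM + 0.5) minus the mean of the 4 sham libraries, with colours that end at −2 and 2. Sham libraries differ among themselves for some genes, most of all for Hspa1a, whose highest value is in Sham 5, and the 4 burn columns show the same direction for each gene, with differences in size between libraries.

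Receptors for chemokines and mediators of inflamed tissue and skin fell in 3 of 14 tested genes and rose in none, with a median of −0.48. Ccr10 directs T cells towards CCL27 in skin. It had 188, 261, 252 and 209 CPM in sham and 94.4, 70.6, 92.5 and 77.7 CPM in burn libraries. Every burn library was far below the lowest sham library, and the fall was 2.72-fold (adjusted p = 4.38e-04). Cxcr3, the receptor for interferon-induced chemokines, had 279, 257, 259.7 and 216 CPM in sham and 137, 122, 164 and 118 CPM in burn libraries, a 1.87-fold fall (adjusted p = 0.00306). Ptger4, a prostaglandin E2 receptor, fell 1.45-fold (655 ± 75.0 to 450.3 ± 26.4 CPM, adjusted p = 0.0166), with its call lost in 5 of the 8 analyses, up to 0.0887 without Sham 3.

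Among 22 transcription factors of effector Tregs edgeR called 1 and DESeq2 4 lower, with 9 at an unadjusted p under 0.05 and a list median of −0.33. Tbx21 encodes T-bet, which directs CXCR3 expression in T cells. It had 34.4, 30.7, 31.2 and 32.8 CPM in sham and 13.4, 13.3, 17.5 and 12.1 CPM in burn libraries. The sham libraries were nearly equal, and the fall was 2.29-fold (adjusted p = 0.00121). Of 17 suppressive and repair mediators 3 fell and none rose, with a median of −0.18. Besides Fgl2 these were Prf1 and Areg. Prf1, the pore-forming protein of cytotoxic granules, had 42.1, 28.3, 28.9 and 28.5 CPM in sham and 16.5, 12, 20.3 and 14.9 CPM in burn libraries. It fell 2.00-fold (adjusted p = 0.0111), and without Sham 2, its highest library, the adjusted p was 0.0675. The CD8 and NK cell markers Cd8a, Cd8b1 and Ncr1 did not pass the test (log2 fold changes 0.17, −0.04 and −0.06). Areg, the epithelial growth factor amphiregulin that tissue Tregs make in repair, had 26.7, 24.2, 24.2 and 31.7 CPM in sham and 12.3, 13.2, 7.44 and 14.8 CPM in burn libraries. Its fall was 2.24-fold (adjusted p = 0.0354) with no overlap, although it was called in none of the 8 analyses without 1 library (0.0613 to 0.122).

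The cytokine and chemokine list had the lowest median of the lists described here with calls, −0.81 over 15 genes. Of the 15, 14 had a lower mean in burn. Summed over the 27 listed genes, the level was 2418 to 2604 CPM in sham and 2311 to 2655 CPM in burn libraries, which overlap. Lta, which encodes lymphotoxin alpha, had 76.0, 87.8, 95.4 and 75.0 CPM in sham and 48.1, 50.6, 42.0 and 50.3 CPM in burn libraries, a 1.75-fold fall (adjusted p = 0.00262). Ccl5, the chemokine RANTES, fell 2.38-fold, from 32.2 ± 5.46 to 13.5 ± 3.46 CPM (adjusted p = 0.00623). No other member passed the test. The protease list gave 3 lower genes of 26 tested, among them the cathepsins Ctsw and Ctse. Ctsw, a cathepsin of cytotoxic lymphocytes, had 70.8, 76.6, 67.4 and 82.2 CPM in sham and 41.4, 42.4, 41.3 and 32.5 CPM in burn libraries and fell 1.88-fold (adjusted p = 4.76e-05). Ctse fell 1.53-fold (adjusted p = 0.0369), with the call lost in 7 of the 8 analyses, up to 0.141 without Burn 5.

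**Figure D4:**
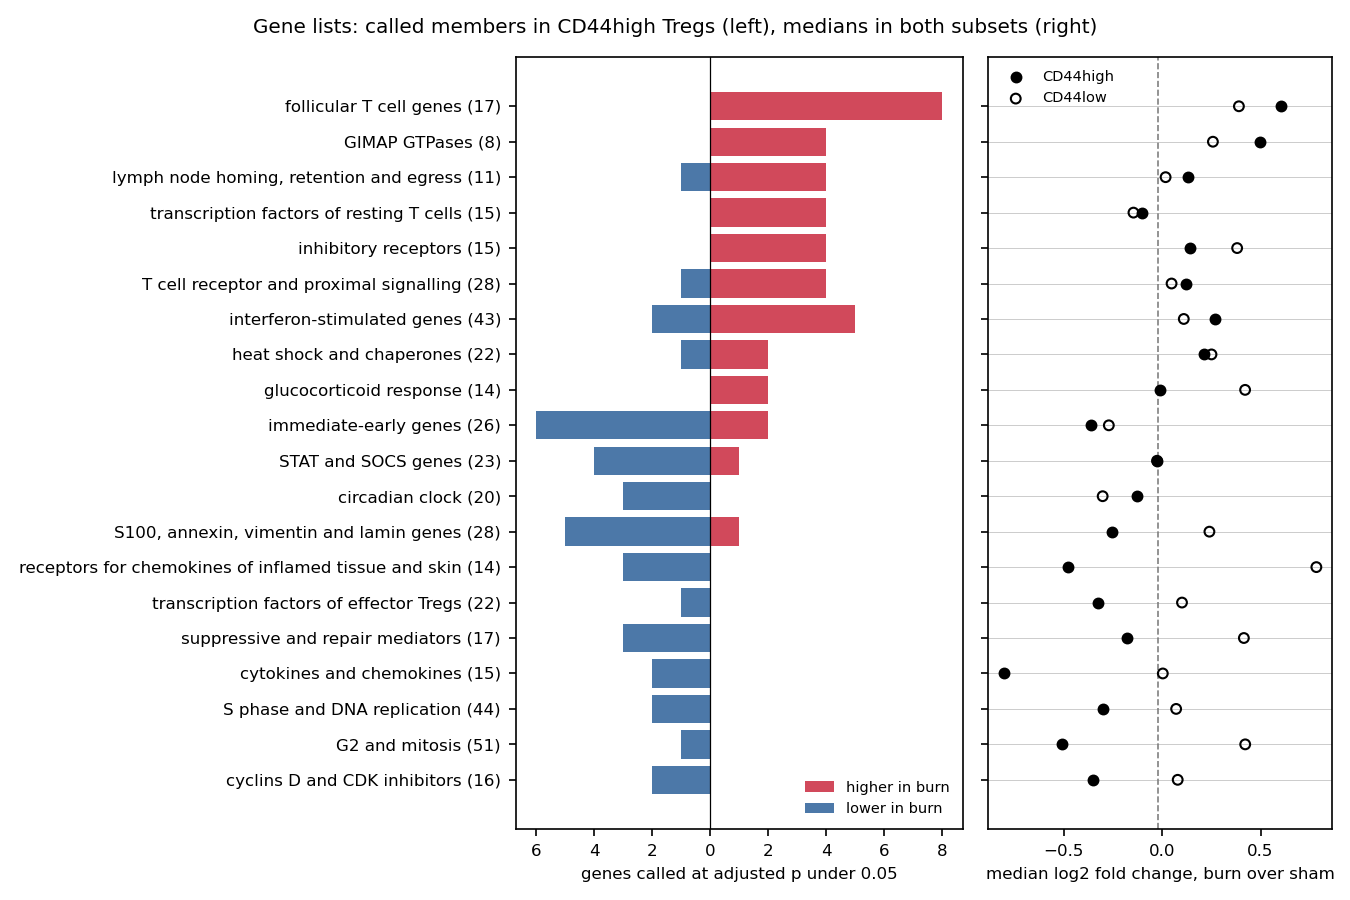
Gene lists by name (y axis, with the number of genes tested). The left panel gives the number of genes called in CD44high Tregs (x axis, higher in red to the right, lower in blue to the left), and the right panel the median log2 fold change of each list in CD44high (filled) and CD44low (open circles) Tregs beside that of all genes (dashed line). The follicular list has 8 higher and no lower calls, the inflamed tissue and skin receptors 3 lower and no higher calls.

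Immediate-early genes, which respond at once to receptor signals and stress, fell in 6 and rose in 2 of 26 tested genes, with a median of −0.36. Fos, a subunit of the AP-1 transcription factor, had 338, 279, 271 and 567 CPM in sham and 48.7, 32.4, 29.5 and 29.1 CPM in burn libraries. The fall was 10.4-fold (log2 fold change −3.38 ± 0.660, adjusted p = 0.00458), and Sham 5 was the highest by far. Dusp1, a phosphatase that turns off MAP kinases, had 707, 548, 663 and 969 CPM in sham and 293, 241, 247 and 212 CPM in burn libraries, a 2.91-fold fall (adjusted p = 0.00191). In CD44low Sham libraries Fos had 165 to 316 and Dusp1 390 to 578 CPM. CD44low Burn 1, 2 and 5 had 13.5 to 16.4 CPM of Fos and 206 to 212 CPM of Dusp1. CD44low Burn 1_2, 4_2 and 5_2 had 138 to 232 and 415 to 598 CPM, and the cause of this split was not tested. Zfp36 encodes tristetraprolin, which marks cytokine mRNAs for decay. It stood at 882, 809, 773 and 843 CPM in sham and at 404, 362, 346 and 384 CPM in burn libraries, and fell 2.21-fold (adjusted p = 1.37e-04). Klf6 had 379, 430.3, 329 and 390.0 CPM in sham and 199.6, 198, 202 and 207 CPM in burn libraries, a 1.90-fold fall with almost equal burn libraries (adjusted p = 1.37e-04).

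Genes of cytokine signalling through STAT proteins gave 4 lower and 1 higher call among 23 tested, with a median of −0.03. The 4 lower genes, Cish, Socs2, Pim1 and Socs1, are induced by interleukin 2 and related cytokines, and 3 of them encode SOCS family inhibitors of the same pathway. Cish had 485, 509.7, 531 and 451 CPM in sham and 216, 309, 232 and 234 CPM in burn libraries. The groups did not overlap and the fall was 1.99-fold (adjusted p = 2.17e-04). Socs2 fell 1.77-fold, from 68.4 ± 10.2 to 38.5 ± 3.86 CPM (adjusted p = 0.00208), and the kinase gene Pim1 fell 2.09-fold, from 100.3 ± 7.36 to 48.0 ± 10.5 CPM (adjusted p = 0.00631). Socs1 fell 1.41-fold (191 ± 23.7 to 135 ± 9.01 CPM, adjusted p = 0.0182), with the call lost in 4 of the 8 analyses, up to 0.109 without Sham 3.

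The promoter of Cish is shown because STAT proteins bind the sequence TTCNNNGAA (a GAS element), and 2 of these elements lie in tandem at its start site. The stretch is chr9:107296409-107296678 on the plus strand of GRCm38.p6 (RefSeq), 250 bases before and 20 bases after the annotated start, with the 2 elements in capitals.
Cish promoter: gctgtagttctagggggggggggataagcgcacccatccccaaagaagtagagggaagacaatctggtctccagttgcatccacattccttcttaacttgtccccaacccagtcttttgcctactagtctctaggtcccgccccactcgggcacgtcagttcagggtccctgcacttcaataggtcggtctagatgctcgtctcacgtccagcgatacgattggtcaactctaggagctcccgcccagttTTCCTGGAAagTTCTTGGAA
Promoters were searched on both strands from 250 bases before to 50 bases after the start, and TTCNNNGAA was found in 8.30% of the 32851 promoters. Of the 4 lower genes 3 had a promoter that was examined, and 1 of them, Cish, held the motif. Counted by gene, where a match in any of its promoters sufficed, 9 of 95 genes called higher and 12 of 120 called lower held the motif. Of the 9143 genes tested that had a promoter, 8.35% held it. These are matches of letters and no measurement of binding.

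Interferon-stimulated genes moved in both directions, with 5 higher and 2 lower of 43 tested and a median of 0.27. Ifi27l2a rose 1.96-fold, with 383, 513, 449.7 and 387 CPM in sham and 937, 756, 918 and 790.0 CPM in burn libraries (adjusted p = 0.00417). Isg15, a ubiquitin-like protein induced by type I interferon, had 16.6, 28.1, 23.4 and 14.9 CPM in sham and 45.1, 41.1, 70.3 and 38.0 CPM in burn libraries, a 2.35-fold rise (adjusted p = 0.00817). By contrast Gbp3, a guanylate-binding protein induced by interferon gamma, had 220.2, 229, 246 and 237 CPM in sham and 153, 143, 169 and 151 CPM in burn libraries. It fell 1.52-fold with no overlap (adjusted p = 0.00631). Iigp1, another interferon-induced GTPase, fell 1.91-fold (119.7 ± 22.9 to 62.5 ± 18.1 CPM, adjusted p = 0.00904), with its call lost in 3 of the 8 analyses, up to 0.0607 without Sham 3. Ifngr1, the ligand-binding chain of the interferon gamma receptor, rose 1.31-fold (adjusted p = 0.0487), with the call lost in 6 of the 8, up to 0.144 without Burn 5.

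Isg15 and Gbp3 moved in opposite directions, and both carry copies of the core of an interferon-stimulated response element, GAAANNGAAA, before their start. Both promoters are given on the strand of the gene, 250 bases up to the start, with all bases covered by a match in capitals. Isg15 lies on the minus strand at chr4:156200819-156201068 and Gbp3 on the plus strand at chr3:142559794-142560043 (GRCm38.p6, RefSeq).
Isg15 promoter: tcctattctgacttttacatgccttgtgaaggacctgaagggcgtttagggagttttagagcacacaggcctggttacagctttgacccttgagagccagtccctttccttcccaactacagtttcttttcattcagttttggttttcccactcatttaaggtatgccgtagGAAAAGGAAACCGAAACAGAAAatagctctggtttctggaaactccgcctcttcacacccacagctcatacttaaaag
Gbp3 promoter: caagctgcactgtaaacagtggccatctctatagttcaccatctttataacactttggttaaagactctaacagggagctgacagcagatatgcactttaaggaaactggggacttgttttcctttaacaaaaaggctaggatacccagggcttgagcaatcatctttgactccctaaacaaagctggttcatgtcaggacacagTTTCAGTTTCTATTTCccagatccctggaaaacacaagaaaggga
Isg15 holds 3 overlapping matches and Gbp3 2 overlapping matches on the other strand. The other listed start of Gbp3 had no match in its window. Of the 4 interferon-stimulated genes asked for, only these 2 had a promoter that was examined. The search by gene did not cover every chromosome, so a gene without a promoter here may have been left out. The motif was found in 3.44% of all promoters. Counted by gene, it was held by 3.87% of genes tested, 7 of 95 called higher and 5 of 120 called lower.

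Heat shock and chaperone genes gave 2 higher and 1 lower call of 22 tested (against 1.06% and 1.33% of all genes tested), with a median of 0.21. Hsph1, which encodes the large chaperone HSP110, had 89.3, 107, 113 and 124 CPM in sham and 278, 245, 209.7 and 269 CPM in burn libraries, a 2.31-fold rise (adjusted p = 0.00201). Hspe1, the mitochondrial co-chaperone HSP10, rose 1.89-fold, from 36.7 ± 7.51 to 69.4 ± 11.4 CPM (adjusted p = 0.00343). Hspa1a, the inducible HSP70, moved the other way, with 6.06, 4.58, 7.01 and 22.6 CPM in sham and 1.06, 0.953, 0.323 and 0.262 CPM in burn libraries. That was a 15.3-fold fall (adjusted p = 0.00350) that rested on 287 sham and 22 burn counts. Hspa1a has a near-identical neighbour gene, so its share of the reads is uncertain. No gene of the 23 tested of the unfolded protein response was called by edgeR (median 0.11, 5 at an unadjusted p under 0.05, 1 called higher by DESeq2), and its most abundant member Hspa5 had 1162 ± 69.7 and 1735 ± 289 CPM (adjusted p = 0.0583). The promoter of Hspe1 carries 2 overlapping matches to the heat shock element GAANNTTCNNGAA, in capitals in chr1:55087898-55088147 (plus strand, GRCm38.p6, RefSeq).
Hspe1 promoter: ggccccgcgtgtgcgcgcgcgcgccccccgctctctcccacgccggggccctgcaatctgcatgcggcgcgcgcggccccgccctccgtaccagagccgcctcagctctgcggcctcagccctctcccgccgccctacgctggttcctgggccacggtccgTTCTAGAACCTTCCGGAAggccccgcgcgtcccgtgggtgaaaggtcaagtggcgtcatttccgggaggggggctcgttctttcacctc
This element is rare, in 0.603% of all promoters and, counted by gene, in 0.558% of genes tested. Hspe1 and Hsph1 were the 2 of 95 genes called higher that held it, and 1 of 120 called lower did. Hspa1a, the heat shock gene that fell, held no match in its window.

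Glucocorticoid-response genes rose in 2 of 14 tested (against 1.06% of all genes tested) and fell in none, with a median of −0.01. Ddit4, which restrains mTOR, had 36.5, 37.5, 46.7 and 40.2 CPM in sham and 68.0, 103, 101 and 80.4 CPM in burn libraries, a 2.19-fold rise (adjusted p = 3.13e-04). Tsc22d3, the glucocorticoid-induced leucine zipper GILZ, rose 1.59-fold (373 ± 54.3 to 593 ± 55.0 CPM, adjusted p = 0.0369), with the call lost in 6 of the 8 analyses, up to 0.121 without Sham 2. Clock genes fell in 3 of 20 tested, with a median of −0.13. Nr1d1, the repressor REV-ERB alpha, had 44.2, 46.8, 28.2 and 32.8 CPM in sham and 12, 18.4, 16.9 and 11 CPM in burn libraries, a 2.59-fold fall (adjusted p = 0.00201). Hlf had 23.7, 23.2, 22.9 and 27.4 CPM in sham and 3.72, 8.47, 10.2 and 4.58 CPM in burn libraries and fell 3.57-fold (adjusted p = 0.00267). The related factor Dbp fell 1.81-fold (48.9 ± 6.73 to 27.0 ± 1.52 CPM, adjusted p = 0.00338). All 3 have a strong daily rhythm, Nr1d1 as part of the clock's feedback loop and Hlf and Dbp as output genes, and the hour of harvest is not given per library in the sources used here.

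Irs2, an adaptor of insulin and interleukin 4 receptors, had 165, 216, 96.6 and 161 CPM in sham and 40.4, 26.8, 28.8 and 26.3 CPM in burn libraries. The fall was 5.23-fold (adjusted p = 8.98e-04). Acss2, which makes acetyl-CoA from acetate, fell 1.67-fold (67.5 ± 2.74 to 40.4 ± 5.37 CPM, adjusted p = 7.83e-04). Of 171 tested solute carriers edgeR called 4 lower, against 1.33% of all genes tested, and none higher, and DESeq2 called 7 lower and 3 higher. The 4 were, in the order of their p-values, Slc14a1 (1.82-fold, adjusted p = 0.00137), Slc25a24 (1.69-fold, 0.00400), Slc52a3 (1.92-fold, 0.00749) and Slc23a2 (1.54-fold, 0.0186). They carry urea, adenine nucleotides, riboflavin and ascorbate. The call of Slc23a2 was lost in 3 of the 8 analyses, up to 0.106 without Sham 2. None of the 20 glycolysis genes tested was called by edgeR (median −0.03, 2 at an unadjusted p under 0.05, 0 by DESeq2), and Ldha had 1643 ± 27.3 and 1914 ± 218 CPM (adjusted p = 0.302). Of the 26 tested genes of cholesterol synthesis and uptake edgeR called 0, with 4 at an unadjusted p under 0.05, and DESeq2 called 3 lower (median −0.17).

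Proximal T cell receptor signalling gave 4 higher and 1 lower call of 28 tested, with a median of 0.12. Cd3d, a chain of the receptor complex, had 575, 554, 594 and 624 CPM in sham and 1027, 813, 799 and 892 CPM in burn libraries, a 1.5-fold rise (adjusted p = 0.00713), whereas Cd3e did not pass the test (log2 fold change −0.05, adjusted p = 0.846). Sla and Ubash3b both encode negative regulators of receptor signalling and moved in opposite directions. Sla rose 1.41-fold (479 ± 35.1 to 678 ± 44.4 CPM, adjusted p = 0.00342) and Ubash3b fell 1.5-fold (225 ± 6.91 to 150.3 ± 8.15 CPM, adjusted p = 0.00415). Ptpn6, the phosphatase SHP-1, rose 1.42-fold (adjusted p = 0.0171), with the call lost in 3 of the 8 analyses, up to 0.0747 without Burn 2. None of the 20 NF-kB genes tested was called by edgeR (2 at an unadjusted p under 0.05, 0 by DESeq2), and Nfkbia, its feedback inhibitor, had 602 ± 41.7 and 611 ± 86.9 CPM.

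Most cell cycle genes had a lower mean in burn, and the number that passed depended on the test. Of 51 tested genes of G2 and mitosis 1 had a higher mean in burn, 26 were lower with no overlap (against 7.34% of all genes tested), the median was −0.51, and 1 passed edgeR's test. DESeq2 called 10 of them lower, and 21 had an unadjusted p under 0.05. Their summed level was 2793 to 3520 CPM in the sham and 2044 to 2421 CPM in the burn libraries, so the sums did not overlap. Of 44 tested genes of S phase and DNA replication 3 had a higher mean in burn, 14 were lower with no overlap, the median was −0.30 and 2 passed, against 5 by DESeq2 and 15 at an unadjusted p under 0.05. The summed level was 4837 to 5733 CPM in sham and 4183 to 4484 CPM in burn libraries. Kif22, a mitotic kinesin, had 80.2, 80.4, 78.6 and 87.3 CPM in sham and 47.9, 39.9, 53.9 and 43.1 CPM in burn libraries and fell 1.77-fold (adjusted p = 0.0220), with the call lost in 6 of the 8 analyses, up to 0.0869 without Burn 5. Racgap1, which the dividing cell needs for cytokinesis, had 213, 236, 251 and 229 CPM in sham and 124, 127, 158 and 138 CPM in burn libraries. It fell 1.70-fold (adjusted p = 0.0148), with the call lost in 2 of the 8, up to 0.0601 without Burn 2. Rrm1, a subunit of ribonucleotide reductase, and Mcm7, of the replicative helicase, fell 1.37-fold and 1.36-fold (adjusted p = 0.0379 and 0.0384). Of the 16 D-type cyclins and CDK inhibitors Ccnd3 (1.27-fold, adjusted p = 0.0405) and Cdkn2c (1.52-fold, 0.0418) fell. Rrm1, Mcm7 and Cdkn2c were called in none of the 8 analyses that left out a library (up to 0.141 without Burn 5, 0.200 without Sham 3 and 0.152 without Sham 3), and Ccnd3 in 1 (up to 0.182 without Sham 3).

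Ribosomal and mitochondrial genes mostly had slightly higher means in burn. None of 81 cytosolic ribosomal protein genes was called by edgeR or DESeq2 and 7 had an unadjusted p under 0.05, yet 80 of them had a higher mean in burn, with a median of 0.28. Their sum was 12881 to 15899 CPM in sham and 15239 to 19835 CPM in burn libraries, which overlap. Of the 75 nuclear-encoded respiratory chain genes 2 rose, against 1.06% of all genes tested, and the median was 0.25. They were Uqcr10 (1.49-fold, adjusted p = 0.0229) and Atp5e (1.51-fold, adjusted p = 0.0405). These calls were lost in 4 and in all 8 of the analyses without 1 library, up to 0.0972 and 0.148 without Burn 5. With the trend on transcript length removed, the medians of the ribosomal and respiratory genes were 0.20 and 0.16. Burn 2 had the steepest trend on length of the 8 libraries, and without it these medians were 0.34 and 0.20. The cause of these small shifts was not tested.

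The largest rises among the named genes were of genes at low levels. Gjb2, the gap junction protein connexin 26, had 1.96, 0.509, 1.17 and 1.11 CPM in sham and 15.3, 10.9, 10.8 and 10.5 CPM in burn libraries. The libraries were far apart and the rise was 9.93-fold (adjusted p = 8.98e-04). Ccl8, a chemokine of myeloid cells, had 1.07, 0.339, 1.00 and 1.84 CPM in sham and 4.91, 3.28, 7.01 and 16.6 CPM in burn libraries, a 7.11-fold rise (adjusted p = 0.0125), with the call lost in 2 of the 8 analyses, up to 0.0774 without Burn 5, its highest library. S100a9, a calgranulin that defines neutrophils, had 1 count in all sham libraries and 140 in the burn libraries, of which Burn 3 (9.85 CPM) and Burn 5 (4.58 CPM) held most. The ratio has a 95% exact interval of 18.7 to 4213 that covers counting error only. Its adjusted p was 0.0496, and the call was lost in 6 of the 8 analyses, up to 0.149 without Sham 3. S100a8, its partner, had 0.178, 0, 0 and 0 CPM in sham and 0.398, 9.11, 1.19 and 3.54 CPM in burn libraries (adjusted p = 0.101). The part of neutrophil RNA in other results was not tested. The largest falls among the named genes, beside Hspa1a, Fos and Irs2, were Dlk1 (8.90 ± 3.23 to 1.5 ± 0.262 CPM, 5.92-fold, adjusted p = 0.00850) and Arhgef28 (5.19 ± 2.36 to 1.00 ± 0.807 CPM, 5.2-fold, adjusted p = 0.0465). Dlk1 lost its call in 1 of the 8 analyses (0.0508 without Sham 3) and Arhgef28 in 7 (up to 0.180 without Sham 3).

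Beside the CD44low Tregs, the CD44high response was the smaller in number. The CD44low Burn libraries are numbered 1, 2, 5, 1_2, 4_2 and 5_2, and the labels do not explain the second number. All were treated as separate libraries, although the numbers 1 and 5 recur. Burn changed 871 genes in CD44low Tregs (7.6%), 486 higher (4.24%) and 385 lower (3.36%), from 11 libraries against 8. Both counts moved with single CD44low libraries, to 1122 and 771 genes when Burn 5_2 was left out, to 303 higher without Burn 1_2, and to between 175 and 244 lower without any 1 of Sham 1, Sham 2, Sham 3, Sham 4, Burn 1, Burn 2 and Burn 1_2. Leaving out Burn 1_2, 4_2 and 5_2 together gave 858 higher and 890 lower genes. In both subsets 41 genes were higher, 33.9% of the CD44high and 8.44% of the CD44low list, and 30 were lower, 19.7% and 7.79%. No gene was higher in CD44high and lower in CD44low Tregs, and 4 were lower in CD44high and higher in CD44low Tregs. The spread of both comparisons was estimated from the same 19 libraries. Examples called in both are Ddit4 (log2 fold changes 1.13 and 1.33), Hsph1 (1.21 and 0.97), Gjb2 (3.31 and 2.05), Irs2 (−2.39 and −1.69) and Hspa1a (−3.94 and −5.43).

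Whether burn acted differently in the 2 subsets was tested directly as an interaction, and 74 genes (0.645%) passed, 22 with a higher log2 fold change in CD44high Tregs (0.192%) and 52 with a lower (0.454%). That number was 43 without CD44high Burn 5 and 110 without CD44high Burn 2. It was 217 with DESeq2 on all 4 groups and 314 without the CD44low Burn libraries 1_2, 4_2 and 5_2. Of the 273 genes called in CD44high Tregs 35 were among the 74, 14 higher and 21 lower. Satb1 had the smallest p, with a difference of 1.71 on the log2 scale (adjusted p = 4.72e-06). Its level in CD44low Tregs was 615 to 738 CPM in sham and 558 to 669 CPM in burn libraries, so the CD44high libraries remained below them after burn. Tcf7 (difference 0.70, adjusted p = 0.00321) and Dennd2d (1.25, 1.04e-04) were alike in this. Both had a log2 fold change between −0.10 and 0.04 in CD44low Tregs and a higher mean there than in either CD44high group.

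Fgl2 and Lmna fell in CD44high Tregs from levels far above those of CD44low Tregs. Fgl2 had 16.9 to 25.8 CPM in CD44low Sham and 15.2 to 32.0 CPM in CD44low Burn libraries (difference −1.29, adjusted p = 0.0155), and Lmna 8.44 to 17.2 and 7.65 to 20.8 CPM (−1.51, 0.00671). Ccr10 fell in CD44high and rose in CD44low Tregs, where it went from 0 to 1.85 CPM in sham to 1.99 to 5.21 CPM in burn libraries, and the difference was −3.21 (adjusted p = 4.22e-04). Racgap1 and Jaml likewise fell in CD44high and rose in CD44low Tregs. For Racgap1 the log2 fold changes were −0.76 and 0.97 (difference −1.73, adjusted p = 5.40e-04). For Jaml, an adhesion molecule of leukocytes, they were −1.02 and 1.21 (difference −2.23, adjusted p = 6.31e-04). Its CD44high level was 35.3, 49.8, 35.2 and 32.7 CPM in sham and 15.1, 15.4, 26.2 and 18.6 CPM in burn libraries (adjusted p = 0.0205, call lost in 4 of the 8 analyses, up to 0.109 without Sham 3). By list, the medians in CD44high and CD44low Tregs were −0.51 and 0.42 for G2 and mitosis, −0.48 and 0.78 for the inflamed tissue and skin receptors, −0.18 and 0.42 for suppressive and repair mediators and 0.60 and 0.39 for follicular genes. The test of the difference was passed by 5, 4, 3 and 1 genes of these lists, in that order. In CD44low Tregs 4 of the inflamed tissue and skin receptors were called higher and 0 lower. Their summed level there was 382 to 517 CPM in sham and 414 to 580 CPM in burn libraries, which overlap.

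**Figure D5:**
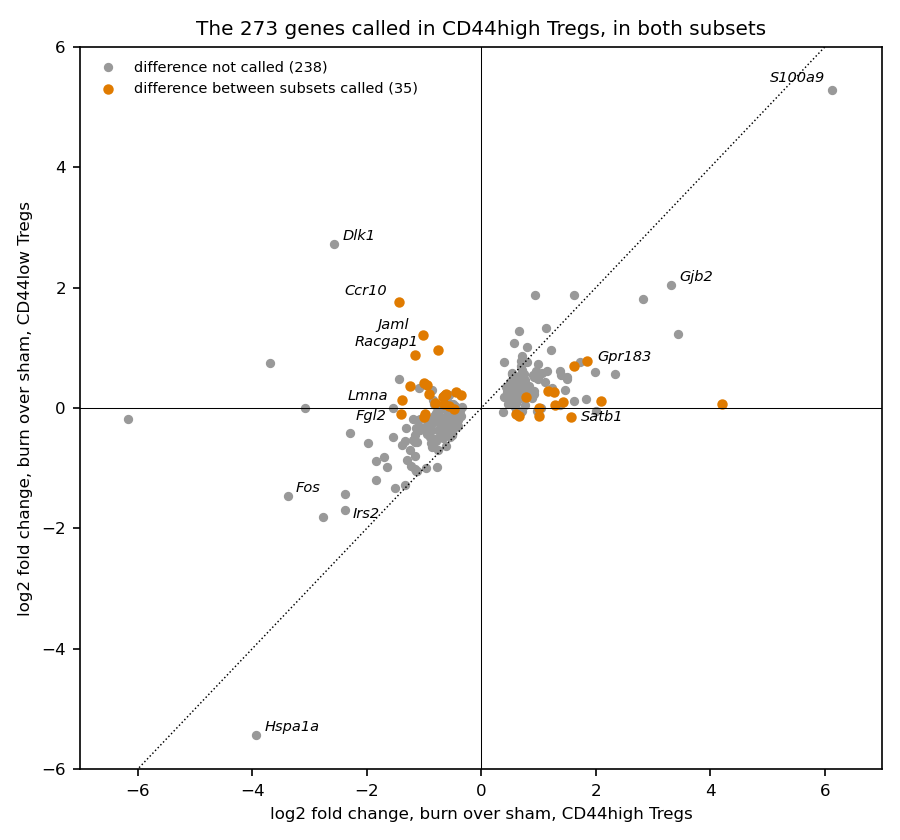
Log2 fold change of burn over sham in CD44high Tregs (x axis) and in CD44low Tregs (y axis) for the genes called in CD44high Tregs, with 1 point per gene, those that passed the test of the difference between subsets in orange and a dotted line where both are equal. Of the 273 genes, 35 passed that test, among them Satb1 and Gpr183 (higher in CD44high) and Ccr10, Jaml and Racgap1 (lower in CD44high and higher in CD44low).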

How the data were processed

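RNA of sorted Tregs was converted to cDNA with SMART-Seq reagents and sequenced by the authors. They deposited raw read counts per gene, not normalized, with 1 column per library. Per the submitters' processing notes the tools were STAR 2.5 and bcl2fastq 2.18, and the builds mm9 and mm10 are both named without a role, so no coordinate of the counts is used. All 19 columns were mapped to a sample by name. Of the 24982 gene symbols 24464 were matched to GENCODE vM21, 363 to RefSeq symbols and 60 to RefSeq synonyms, 26 were date-like and 69 were unmatched. Promoters came from RefSeq GRCm38.p6.

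Counts were tested with R 4.3.3, edgeR 4.0.16 and limma 3.58.1 (quasi-likelihood, two-sided, TMM, low counts filtered by filterByExpr at a minimum of 10, 1 mean for each of the 4 groups over all 19 libraries, Benjamini-Hochberg over the 11464 genes tested). A gene was called at an adjusted p under 0.05, and strictly at an unadjusted p under 1e-06 with a 2-fold change. Tests were tried on simulated counts in which 200 genes were changed in the CD44high Burn libraries. At an adjusted p under 0.05 edgeR called 24% of those changed 1.5-fold, 70% at 2-fold, 88% at 3-fold and 92% at 4-fold. A gene without a call may therefore still have changed. Tables and plots used Python 3.11.15, pandas 2.3.3, scipy 1.17.1 and matplotlib 3.10.9. CD44high library totals were 5678888 to 9433610 counts, without molecular identifiers, so intervals cover counting error only. CPM has no prior count, and the plot of libraries adds 0.5.

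Alternatives were RLE factors, no filter, DESeq2 1.42.0, a fit of the 8 CD44high libraries with and without the replicate number, thinning to 5582234 counts, a 2-fold threshold, leaving out each library, and leaving out the CD44low Burn libraries with a second number. Named genes were the 6 markers given, the 10 of smallest p and 5 of largest fold in each direction (no overlap, at least 5 CPM, 5 higher and 6 lower predicted or similar genes passed over), up to 4 called members of each of 51 lists (2 of highest level where none was called), the 5 of smallest interaction p and sort markers. Genes of the strict rule and at its border were listed by name as well. A result that these rules would name is not reported here. Members and lists were chosen with earlier results of these data known. Same-numbered CD44high Sham and CD44high Burn libraries did not deviate together (correlations −0.008 to 0.018) and were not treated as pairs. The labels do not say whether same-numbered CD44high and CD44low libraries came from the same mice. Such a pairing was not tested, and the comparisons of the subsets treated all libraries as independent. Replicates of each group differed by more than counting noise.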

Additional observations from a re-analysis of the deposited data

Results flagged for a closer look

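In the CD44high groups, 13 of 240 tests of single libraries (5.42%) met Dixon's limit for an outlying value, and chance alone marks about 1 in 20. Of these 6 were in Burn 2, which was the highest of its group for Cd69 (291 CPM), Klf3 (175 CPM), Izumo1r (840.4 CPM), Gjb2 (15.3 CPM), Fos (48.7 CPM) and Rela (275 CPM). Burn 5 was the lowest for Ctsw (32.5 CPM). In the sham group, Sham 5 was the highest for Hspa1a (22.6 CPM) and Pdcd1 (163 CPM), Sham 3 was the highest for Jaml (49.8 CPM) and the lowest for Cd9 (19.3 CPM), Sham 2 was the highest for Prf1 (42.1 CPM), and Sham 4 held the single sham count of S100a9 (0.167 CPM).

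The effect of burn differed between CD44high and CD44low Tregs, by the interaction test in edgeR, for 23 of the named genes. On the log2 scale the CD44high effect exceeded the CD44low effect by 1.97 for Art2b, 1.71 for Satb1, 1.25 for Dennd2d, 1.06 for Gpr183, 1.00 for Cd9, 0.93 for Dtx1, 0.90 for Gimap4, 0.70 for Tcf7 and 0.60 for Evl. The same difference was negative for Ccr10 (−3.21), Jaml (−2.23), Racgap1 (−1.73), Ccl5 (−1.62), Lmna (−1.51), Prf1 (−1.42), Slc52a3 (−1.33), Fgl2 (−1.29), Cxcr3 (−1.13), Vim (−0.88), Cish (−0.85), Mcm7 (−0.71), Ccnd3 (−0.56) and Anxa6 (−0.45). The adjusted p-values lay between 4.72e-06 for Satb1 and 0.0492 for Dtx1 and Evl.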

How the results depend on the processing

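With RLE factors, thinning and no filter, the counts of called genes in CD44high Tregs (121 higher, 152 lower) stayed within 1.5 times. DESeq2 gave 193 and 283 on all 4 groups and 410 and 513 on the 8 CD44high libraries, edgeR on those 8 gave 278 and 323, and a 2-fold threshold gave 36 and 50. With the replicate number as a block on the 8 libraries, which share only a number, edgeR gave 218 and 292 at an adjusted p under 0.05 and 11 and 13 by the strict rule, against 278 and 323, and 13 and 13, without the block. By the strict rule (14 higher, 3 lower) DESeq2 on the 8 libraries gave 27 and 42, DESeq2 on all groups 19 lower, edgeR on the 8 libraries 13 lower and no filter 8 lower. Leaving out 1 library gave 78 to 99 higher and 71 to 118 lower genes, and 7 to 10 and 1 to 4 by the strict rule. In CD44low Tregs (486 and 385) DESeq2 gave 923 higher, leaving out Burn 1_2, 4_2 and 5_2 together gave 858 and 890, and leaving out 1 library 303 to 1122 and 175 to 771. The difference between subsets (74 genes) gave 217 with DESeq2, 314 without those 3 libraries and 43 to 110 with 1 library left out. Leaving out libraries lowered some counts and raised others, and the cause was not tested. By list, DESeq2 on all groups called 5 inflamed tissue and skin receptors lower (3 by edgeR), 6 heat shock and chaperone genes higher (2) and 4 respiratory chain genes higher (2), beside the lists for which the report gives both counts and others that moved by 1 or 2 genes. Of 1917 values of named genes under these settings 1646 stayed on the same side of the threshold, 236 lost and 14 gained the call, and 21 changed sign, for 7 genes with no call in those settings. Over the libraries left out, the log2 fold changes of these genes ranged from −0.073 to 0.073 (Nfkbia), −0.089 to 0.0059 (Cd3e), −0.43 to 0.17 (H2-Ab1), −0.036 to 0.073 (Mrpl4), −0.15 to 0.0038 (Psmb8) and −0.066 to 0.040 (Psmd2). With the trend on transcript length removed, a setting chosen after seeing the data, they were −0.096 for Nfkbia, −0.013 for Mrpl4 and −0.035 for Mrpl18. Psmd2 was at 0.0073 with no filter, 0.015 thinned, and 0.0099 by DESeq2, 0.017 by edgeR and 0.015 with the block on the 8 libraries.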

Other observations

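Some gene groups not described above held few calls, where 1.06% of all genes tested were called higher and 1.33% lower. Of 31 tested interleukin receptors 1 fell besides the rise of Ifngr1. Il17rb, a receptor chain for interleukin 25, had 29.4, 21.2, 20.2 and 30.2 CPM in sham and 11.6, 12.3, 13.7 and 9.82 CPM in burn libraries of CD44high Tregs. Its fall was 2.13-fold (adjusted p = 0.0273) with no overlap, but the call was lost in 7 of the 8 analyses that left out a library, up to 0.117 without Burn 5. Of 20 tested TGF-beta receptors and SMADs 1 fell, Smad4 (212 ± 16.3 to 165 ± 8.97 CPM, 1.29-fold, adjusted p = 0.0483), which was called in none of those 8 analyses (up to 0.198 without Sham 3), and 3 of the 20 had a higher mean in burn. Of 52 translation initiation factors Eif4e3 fell (137 ± 9.09 to 88.0 ± 3.59 CPM, adjusted p = 0.0342), also called in none of the 8 (up to 0.108 without Sham 5).

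Among 77 mitochondrial ribosomal proteins edgeR called 0 and DESeq2 2 higher, with 20 at an unadjusted p under 0.05 and 71 at a higher mean in burn (median log2 fold change 0.23). Among 37 proteasome subunits both tools called 0, with 6 at an unadjusted p under 0.05 and a median of 0.15. The 10 genes of MHC class II presentation had no call by either tool, 1 at an unadjusted p under 0.05 and a median of −0.16. Of 308 zinc finger genes named Zfp 2 were called lower, a smaller share than the 1.33% of all genes tested. They were Zfp36 and Zfp382 (18.7 ± 5.12 to 10.7 ± 2.11 CPM, adjusted p = 0.0420), and the call of Zfp382 was lost in 7 of the 8 analyses, up to 0.206 without Sham 3. Pecam1, an adhesion molecule of endothelium and of naive T cells, rose 1.61-fold in CD44high Tregs (60.8 ± 6.79 to 97.9 ± 15.2 CPM, adjusted p = 0.00750), while Col1a1, a collagen gene of fibroblasts, was at 2.36 ± 0.736 and 1.5 ± 0.719 CPM. Serpina3g, a serine protease inhibitor, fell 1.59-fold (151 ± 19.5 to 94.8 ± 20.3 CPM, adjusted p = 0.0182), with the call lost in 6 of the 8 analyses, up to 0.0769 without Burn 2.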
